A study of Saccharomyces cerevisiae with 21 samples.

Results

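RNA levels were compared between 2 stretches of 1 budding yeast time course, 40 to 60 min and 90 to 110 min after release from a pheromone arrest. Each stretch was taken as a window of 3 libraries sampled 10 min apart, so 6 of the 21 libraries of the course entered the comparison. A gene was kept when its mean over these 6 libraries was at least 1 FPKM, a level scaled for transcript length and sequencing depth, which left 6112 of the 7126 loci in the table. Libraries were assigned to the windows by time alone, but the windows themselves were chosen with earlier results of these data known. The question was which genes of the histone and S/G2 interval declined after it, and which genes of growth, the cell wall or stress were higher once it had passed.

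All libraries came from a single genotype, the clb1-6 mutant of Saccharomyces cerevisiae in the BF264-15D background, which is MATa with bar1::hphMX4 and arg4. Its B-type cyclin genes carried clb1::URA3 and clb2::LEU2, together with clb3::TRP1 and clb4::HIS2 and also clb5::ARG4 and clb6::ADE1, and a further CLB1 copy stood behind the galactose-driven GAL1 promoter (PGAL1-CLB1::LEU2). Cells grown in galactose were held in G1 with alpha-factor at 30 ng/ml for 160 min and then released at 30 °C into dextrose, which represses the GAL1 promoter. Both windows therefore share the missing cyclins, the removal of the pheromone and the change of sugar. Each time point was 1 library with no replicate, and libraries taken 10 min apart from the same culture depend on each other. The p-values below describe how far 2 windows of this course lie apart, not how repeatable the change would be in another culture. Wild-type values were not analysed here.

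B-type cyclins bound to the kinase Cdc28 start DNA replication and later drive mitosis in budding yeast. Cells without them are known to keep forming buds and to keep part of their cell-cycle transcription going, through transcription factors that activate one another in turn. In that series SBF and MBF switch on genes of budding and DNA replication at the end of G1, the histone genes follow in S phase, Hcm1 activates genes of the spindle, and Fkh2, Ndd1 and Mcm1 activate genes of mitosis. Core histones are made mainly while DNA is copied, and their mRNAs are short-lived outside that phase.

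Sums of FPKM were 1722096 to 1893181 in the 40 to 60 min libraries and 1255774 to 1474519 in the 90 to 110 min libraries, and no pair of libraries held identical values. Of that sum, 17.1 to 18.8% came from the 10 highest loci in the first window and 12.2 to 15.4% in the second. The median difference over all 6112 loci was -0.01 on the log2(FPKM + 1) scale, which is the scale of every difference below (90 to 110 min minus 40 to 60 min). When each library was instead scaled to a common sum, that median was 0.35, so every direction below is relative to the bulk of genes. All 7 MATa markers were in the table and none was at 0 in all 6 libraries, while the summed level of the 4 MATalpha markers stayed at 49.53 to 69.04 FPKM and that of 9 diploid or sporulation markers at 60.5 to 78.05 FPKM. In a bulk culture, fewer cells holding a transcript and less of it per cell cannot be told apart.

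Under limma with the Benjamini-Hochberg adjustment over all 6112 loci, 710 loci were called lower at 90 to 110 min (11.6%) and 642 were called higher (10.5%), at an adjusted p under 0.05. Few of these changes were large. Only 60 called loci were at least 2-fold lower (0.982%) and 57 at least 2-fold higher (0.933%). Windows did not overlap and were lower for 1387 loci (22.7%) and higher for 1280 (20.9%), and each of the 710 and 642 called loci was among these. The number of calls rested on single libraries. Without the 110 min library, 5 loci were called lower (0.0818%) and 12 higher (0.196%), although 888 (14.5%) and 777 (12.7%) still had an unadjusted p under 0.05 in each direction. Without the 50 min library, 29 (0.474%) and 56 (0.916%) were called. Leaving out 40 min gave 284 lower and 312 higher, and leaving out 100 min gave 255 and 256. Gene lists below are therefore described by the size of their change as well as by their calls. Counts of calls in each list stand beside the 11.6% of all loci called lower and the 10.5% called higher.

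**Figure D1:**
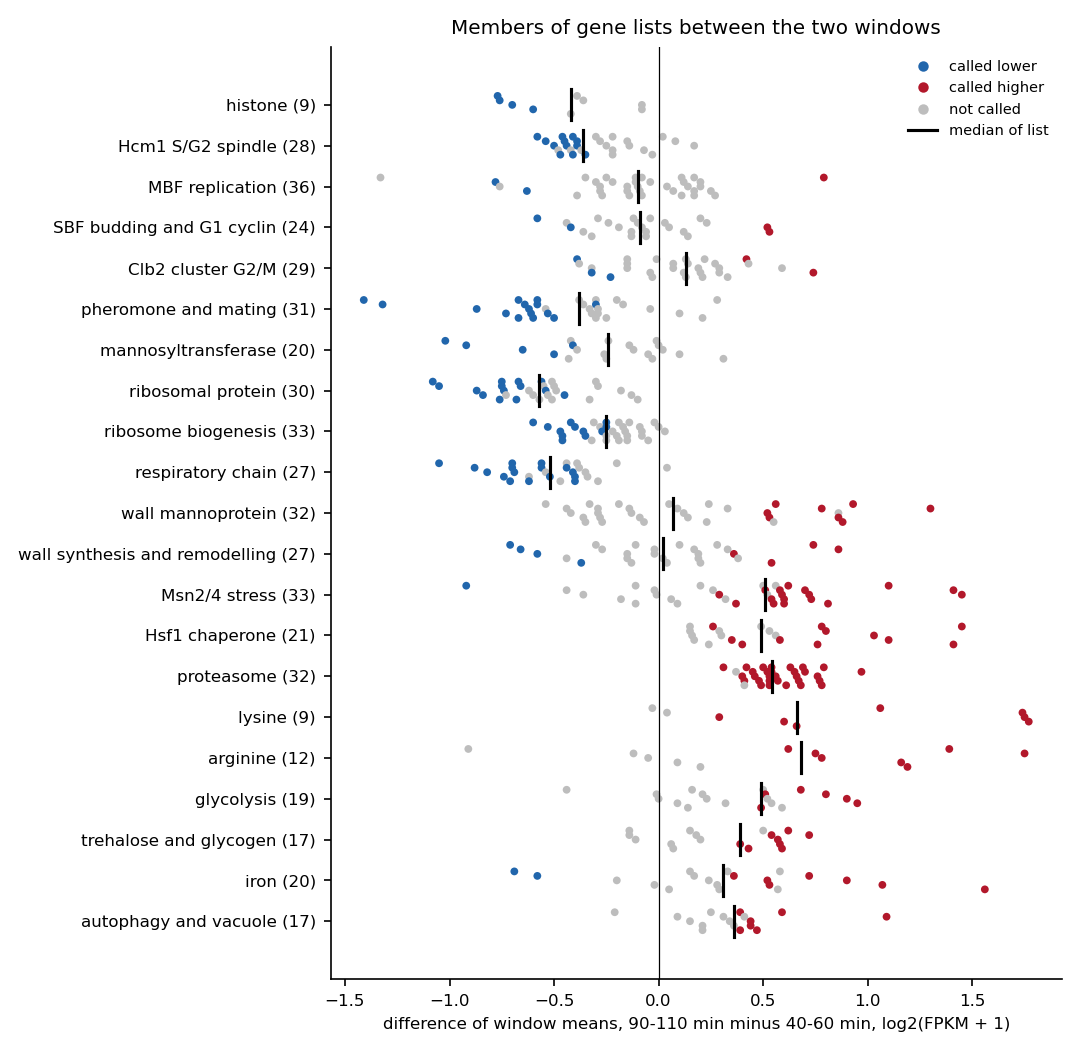
Each point is 1 gene of a list (number tested in brackets), placed by the difference between its window means on the log2(FPKM + 1) scale, with called genes in blue or red, other genes in grey and the median of the list as a black bar. All 32 proteasome genes lie to the right of 0 and all 9 histone genes to the left (6 of 9 when libraries were scaled to a common sum), while the lists of wall genes spread to both sides.

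The histone genes were lower at 90 to 110 min, with differences from -0.77 to -0.08. All 9 core and linker histone genes had a negative difference, or 6 of 9 when libraries were scaled to a common sum. The median was -0.42 against -0.01 over all loci. For 7 the windows did not overlap, beside 22.7% of all loci on the lower side, and 4 were called lower. The 4 were HHO1, HTB2, HTA1 and HHF1. With 4 of 9 called, the share stood above the 11.6% of all loci, but 0 of 9 were called by limma without the 50 min library and 0 without the 110 min library, where 5 and 6 kept an unadjusted p under 0.05 and the median was -0.40 both times. Leaving out 40 min or 100 min left 1 called each time. Scaling to a common sum put the median at -0.04, against 0.35 for all loci. Adjustment for gene length, described with the ribosomal protein genes below, left 4 called and a median of -0.24.

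HTB2 encodes a copy of histone H2B (YBL002W, chromosome II, 236492 to 236887, 1 exon). It stood at 5724, 5435 and 5074 FPKM at 40, 50 and 60 min and at 3529, 3102 and 2997 FPKM at 90, 100 and 110 min. The windows were far apart, with a difference of -0.76 ± 0.12 (SE, limma adjusted p = 0.0143). Its paralogue HTB1 (YDR224C, chromosome IV, 914317 to 914712) moved from 4660, 4262 and 3928 to 3302, 3184 and 3266 FPKM, a difference of -0.39 ± 0.12 that was not called (limma adjusted p = 0.0517). HTA1 (YDR225W, chromosome IV, 915530 to 915928), a gene of histone H2A, went from 3803, 3150 and 2686 to 2047, 1997 and 1841 FPKM. Its difference of -0.70 ± 0.15 was called (limma adjusted p = 0.0222). HTA2 (YBL003C, chromosome II, 235394 to 235792), the other H2A gene, went from 4112, 4000 and 3550 to 2984, 3327 and 2767 FPKM, a difference of -0.36 ± 0.13 that was not called (adjusted p = 0.0805 by limma). In each of these divergently paired loci 1 gene was called and its neighbour was not: HTA1 with HTB1 on chromosome IV, and HTB2 with HTA2 on chromosome II. HTB1 and HTA2 were also lower without overlap of the windows, and the difference between neighbours was not tested.

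Histone H4 was called in 1 of its 2 genes, and histone H3 in neither. HHF1 (YBR009C, chromosome II, 255373 to 255684) stood at 7079, 7648 and 7015 FPKM and then at 4872, 4854 and 4646 FPKM, a difference of -0.60 ± 0.12 (limma adjusted p = 0.0195). HHF2 (YNL030W, chromosome XIV, 576727 to 577038) went from 7383, 7810 and 7154 to 6031, 5605 and 5120 FPKM, without overlap but short of the threshold (-0.42 ± 0.13, limma adjusted p = 0.0605). For H3, HHT1 (YBR010W) and HHT2 (YNL031C) had the same difference of -0.08, with overlapping windows and limma adjusted p of 0.684 and 0.662. HHT2 held 5544, 5727 and 5179 FPKM at first and 5682, 4930 and 4922 FPKM later. The H3 genes, each next to an H4 gene, thus kept most of their level in the libraries where HHF1 had lost about 0.60 on the log2 scale. Coding sequences within these pairs were 87.9% (H2B) to 97.4% (H4) identical, and the counting could split reads between such copies, so the values of single histone genes are uncertain.

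HHO1 (YPL127C, chromosome XVI, 308828 to 309604) encodes the linker histone and is expressed far below the core histones. It had 87.05, 101.3 and 72.16 FPKM in the first window and 59.8, 42.51 and 49.15 FPKM in the second, the largest difference of the list (-0.77 ± 0.16, limma adjusted p = 0.0217). Among 16 histone variants and regulators, HTZ1 (YOL012C), which encodes the H2A variant of promoters, was the only call: 315.5, 392 and 344.4 FPKM became 292.3, 209.5 and 209.2 FPKM (-0.58 ± 0.15, limma adjusted p = 0.0397). The median of that list was -0.06, and the chaperone and repressor genes ASF1 (-0.09), HIR1 (-0.18), HIR2 (-0.20) and HIR3 (0.02) were not called.

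**Figure D2:**
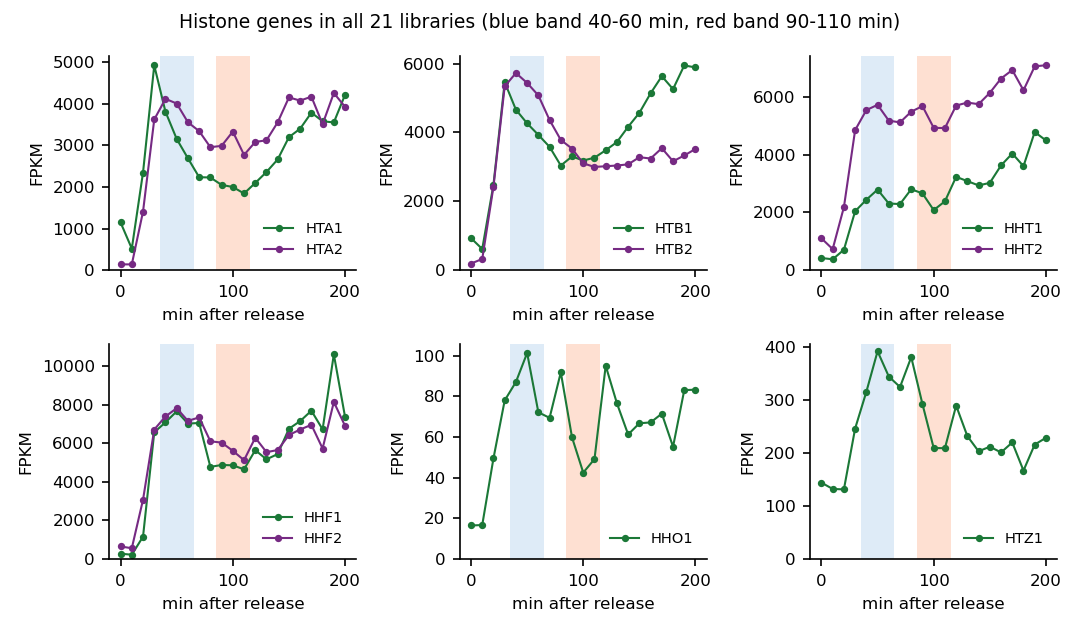
FPKM of the 8 core histone genes by pair, of the linker histone HHO1 and of the variant HTZ1 in all 21 libraries against min after release, with the 40 to 60 min window in blue and the 90 to 110 min window in red. HTA1 and HTB1 climb again after 110 min, HTB2 stays between 2997 and 3542 FPKM from 110 min on, and HHT1 and HHT2 show little change between the windows.

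Histone levels did not stay down. Relative to the 40 to 60 min mean, the median of the 9 genes fell from -0.22 at 70 min to -0.39 at 80 min. It was -0.54 at 110 min, -0.30 at 120 min and 0.02 by the end of the course. HTA1 reached 4211 FPKM at 200 min and HTB1 5886 FPKM, above both windows, whereas HTB2 stood at 3520 FPKM. Of all libraries from 30 min on, 110 min had the lowest median, and the return was a matter of some genes and not of HTB2.

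Genes of the spindle and other Hcm1 targets were mostly lower in the same window. Of 28 genes listed as Hcm1 targets and S/G2 spindle genes, 12 were called lower and none higher, and the median was -0.36. KIP1 (YBL063W, chromosome II, 101886 to 105221), a kinesin that pushes spindle poles apart, went from 24.13, 21.77 and 21.61 to 13.3, 16.65 and 15.59 FPKM (-0.54 ± 0.10, limma adjusted p = 0.0184). KAR3 (YPR141C, chromosome XVI, 815734 to 817923), a minus-end kinesin, went from 76.78, 61.34 and 59.55 to 42.02, 50.86 and 45.64 FPKM (-0.50 ± 0.12, limma adjusted p = 0.0297). Both kinesin genes were at their lowest between 40 and 110 min at 80 min, before the second window began, with 12.2 FPKM for KIP1 and 36.23 FPKM for KAR3. They stayed low: at 200 min KIP1 had 11.71 FPKM and KAR3 36.96 FPKM.

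The other calls of the list covered several parts of the spindle. DAD2 of the Dam1 ring (-0.58), SPC98 of the gamma-tubulin complex (-0.47), the second pole-separating kinesin CIN8 (-0.41), the beta-tubulin gene TUB2 (-0.45), and CIK1 and VIK1, the partners of Kar3 (-0.39 each), were called lower. So were the forkhead genes FKH1 (-0.46) and FKH2 (-0.44), which encode activators of later genes. HCM1 itself was not called and stood at 57.77, 52.82 and 45.75 FPKM and then at 48.45, 51.07 and 49.38 FPKM. Calls in this list numbered 2 without the 40 min library, 0 without 50 min, 6 without 90 min, 2 without 100 min and 0 without 110 min by limma. The number with an unadjusted p under 0.05 was 15, 16, 15, 15 and 15 in the same order, and the median lay between -0.32 and -0.35. Scaled to a common sum, the list's median was 0.00 against 0.35 for all loci. The forkhead motif GTAAACA, searched on both strands of the 300 bases before each start codon, was in 10.5% of the windows of genes called lower, 4.85% of those called higher and 7.25% of all 5626 windows. The genes called lower include 12 of this list, so the 10.5% is not independent of it.

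The late G1 genes that open the S phase programme showed no common direction. Of 36 MBF and replication genes, 2 were called lower and 1 higher, with a median of -0.10, and of 24 SBF, budding and G1 cyclin genes 2 were called in each direction, with a median of -0.09. PDS1 (YDR113C), the securin that holds back anaphase, had 63.27, 51.79 and 44.78 FPKM and then 33.59, 28.15 and 29.17 FPKM (-0.78 ± 0.14, limma adjusted p = 0.0156). NRM1, the repressor that turns MBF genes off, also fell (-0.63 ± 0.10, limma adjusted p = 0.0139). CDC6 (YJL194W), which loads the replicative helicase, rose from 5.966, 5.136 and 4.435 to 8.906, 9.959 and 9.96 FPKM (0.79 ± 0.13, limma adjusted p = 0.0147). CLB6, whose own gene is disrupted here, had the widest gap of the list without being called. It went from 58.11, 21.03 and 11.66 FPKM to 6.759, 11.18 and 9.938 FPKM, and most of that decline came within the first window (-1.33, limma adjusted p = 0.109).

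For many of these genes the 2 windows sat on either side of a trough. Relative to 40 to 60 min, the median of the MBF and replication list was 0.35 at 40 min and -0.24 at 60 min. It reached -0.38 at 80 min and returned to -0.05 at 100 min, then 0.06. RNR1, the large subunit of ribonucleotide reductase, shows this: it stood at 322.1, 180.1 and 118 FPKM in the first window, 97.41 FPKM at 70 min, and 148.2, 196.2 and 255.1 FPKM in the second. Its difference was 0.04 (limma adjusted p = 0.952), so its fall and return cancelled in the window means. The G1 cyclin genes CLN1 (0.05) and CLN2 (0.03) were likewise not called. Without the 110 min library 0 of the 36 MBF genes were called in either direction by limma, with 3 lower and 1 higher at an unadjusted p under 0.05, and without 50 min 0, with 4 and 1.

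**Figure D3:**
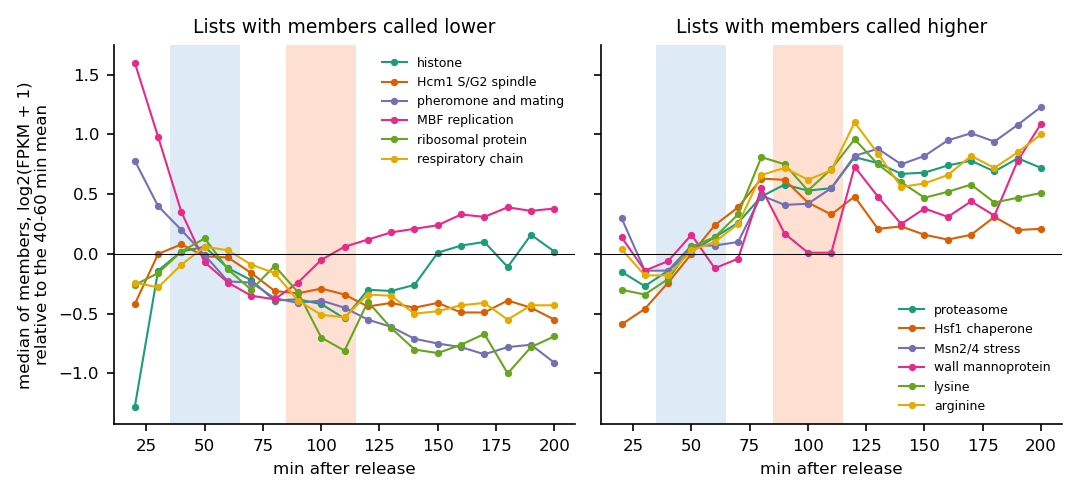
Median over the members of 12 gene lists at each time from 20 to 200 min, on the log2(FPKM + 1) scale relative to each gene's 40 to 60 min mean, with the windows in blue and red. MBF genes dip to -0.38 at 80 min and return, histone genes reach -0.54 at 110 min, and the proteasome list stays between 0.48 and 0.81 from 80 min on.

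Genes of mitosis and cell division changed singly. Of 29 Clb2-cluster genes 3 were called lower and 2 higher (median 0.13). CHS2 (YBR038W), the chitin synthase of the primary septum, rose from 13.27, 17.5 and 20.62 to 28.95, 28.55 and 29.33 FPKM (0.74 ± 0.15, limma adjusted p = 0.0195). CDC20 (0.42), the activator of the anaphase-promoting complex, rose as well, and the mitotic exit kinase gene DBF2 fell (-0.32), except that its difference was 0.03 when libraries were scaled to a common sum. CYK3 (YDL117W), a cytokinesis gene, rose from 29, 30.68 and 38.27 to 55.24, 65.26 and 64.73 FPKM (0.90 ± 0.12, limma adjusted p = 0.0105), and SIC1, the inhibitor of B-type cyclin kinase, rose by 0.85. The daughter-cell separation genes moved the other way: DSE1 (YER124C) went from 29.1, 24.78 and 20.72 to 11.49, 12.3 and 11.61 FPKM, a mean 2.11-fold lower (limma adjusted p = 0.00917), and DSE2 fell by 0.92 on the log2 scale. CLB1 was called lower, from 177.8, 157.6 and 145.9 to 122, 126.8 and 116 FPKM (-0.39). Reads from its disrupted locus and from the GAL1-driven copy cannot be told apart. Without the 50 or the 110 min library 0 genes of the Clb2-cluster list were called by limma, with 3 lower and 4 higher at an unadjusted p under 0.05 without 50 min and 3 and 2 without 110 min. CYK3, SIC1, DSE1 and DSE2 also lost their calls in both cases.

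Pheromone and mating genes continued to decline long after the pheromone had gone. Of 31 listed, 15 were called lower and none higher, with a median of -0.38. FIG1 (YBR040W), needed for mating projections and fusion, went from 354.8, 253.2 and 222.6 to 141, 171.3 and 135.7 FPKM (-0.87 ± 0.18, limma adjusted p = 0.0218). The cell adhesion gene AGA1 fell from 271.4, 252.6 and 192.9 to 156.2, 157.4 and 140.6 FPKM (-0.64). FAR1, which holds cells in G1, fell by 0.58 and the pheromone receptor gene STE2 by 0.53. Calls for mating genes numbered 5 without 40 min, 0 without 50 min, 6 without 90 min, 5 without 100 min and 0 without 110 min by limma, where 18, 19, 20, 20 and 16 kept an unadjusted p under 0.05 on the lower side. The common-sum scaling gave a median of -0.01. The list kept declining after the second window, to a median of -0.91 at 200 min.

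MFA2 and MFA1, the genes of the secreted a-factor, had the largest differences of the mating list. MFA2 (YNL145W, 117 bp) stood at 6210, 10430 and 8093 FPKM and then at 3140, 4058 and 2191 FPKM (-1.41 ± 0.28, limma adjusted p = 0.0195). MFA1 (YDR461W, 111 bp) went from 4459, 7567 and 6056 to 2790, 2304 and 2039 FPKM (-1.32 ± 0.22, limma adjusted p = 0.0146). Both dropped in a single step, from 10217 to 3611 FPKM and from 9424 to 2460 FPKM between 70 and 80 min, and both are very short genes. After adjustment for length the differences were -0.94 and -0.84. These 2 genes carry most of the MATa marker sum, which was 12429 to 19643 FPKM in the first window and 5112 to 7415 FPKM in the second.

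Genes of ribosomal proteins, among the most abundant mRNAs of growing yeast, were lower at 90 to 110 min. All 30 listed had a negative difference, or 24 when scaled to a common sum, 14 were called lower and none higher, and the median was -0.57. RPS8A and RPS8B encode the same small-subunit protein: RPS8B (YER102W, chromosome V, 363100 to 363702) went from 600.9, 671.5 and 739.1 to 275.4, 284.5 and 194.8 FPKM (-1.43 ± 0.16, limma adjusted p = 0.00917), and RPS8A (YBL072C) from 487.7, 720.7 and 837.5 to 378.4, 292.2 and 279.1 FPKM (-1.08 ± 0.22, limma adjusted p = 0.0195). Their coding sequences are 98.2% identical, so reads may be shared between them. RPL39 (YJL189W, chromosome X, 75933 to 76474, 2 coding exons), the most abundant transcript of the first window at 3.59 to 4.68% of the sum, had 62035, 88668 and 73994 FPKM at first and 29678, 31964 and 20912 FPKM later (-1.45 ± 0.27, limma adjusted p = 0.0173). Most of that drop came in 1 step, from 72095 FPKM at 70 min to 30838 FPKM at 80 min. Other members barely moved: RPL3 had a difference of -0.10 and RPP0 of -0.13, with overlapping windows.

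The ribosomal calls rested on the same single libraries. They numbered 5 without 40 min, 0 without 50 min, 1 without 100 min and 0 without 110 min by limma, and 20 without 90 min, with medians from -0.48 to -0.69. Without 50 min 14 and without 110 min 17 kept an unadjusted p under 0.05. Of 33 ribosome assembly genes 12 were called lower and none higher, with a median of -0.25, among them NOP56 of the snoRNP core (-0.60 ± 0.09, limma adjusted p = 0.0113) and the helicase genes DBP9 (-0.53) and DBP3 (-0.47). Of 19 translation factors 3 were called lower, a share close to the 11.6% of all loci, with a median of -0.22. Among the 3 was TIF1 (-0.52), which encodes the initiation factor eIF4A. Scaled to a common sum, the medians of the last 2 lists turned positive, at 0.13 and 0.16, while staying below the 0.35 of all loci, and that of the ribosomal proteins was -0.19. The calls in ribosome assembly numbered 4, 1, 6, 3 and 0 without 40, 50, 60, 100 and 110 min by limma, and 13 had an unadjusted p under 0.05 without 110 min. The translation factors had 0 calls without 50 min and 0 without 110 min by limma, with 6 and 5 at an unadjusted p under 0.05.

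Gene length moved with the difference, which bears on the shortest of these genes. Over genes of at most 300 bp the median difference was -0.34 (324 genes, of which 68 were called lower and 7 higher), and over genes longer than 4000 bp it was 0.20 (196 genes, of which 8 were called lower and 50 higher). Among the 2172 genes of 1000 to 2000 bp it was 0.02. The short genes shifted library by library: their median relative to 40 to 60 min was 0.09 at 70 min but -0.36 at 80 min. It was -0.46 at 110 min, and 0.08 in the next library. An alternative that removed the trend of the difference with length in each library, added after this pattern was seen, called 737 of 5728 loci lower (12.9%) and 727 higher (12.7%). Under it the ribosomal protein list had 19 calls and a median of -0.53, and the histone list 4 calls. The length used was the annotated span of each gene, introns included. Genes with introns, such as RPL39, were therefore adjusted as longer than their mRNA, and the adjustment may fall short for them. The part of length in the results was not tested beyond this.

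**Figure D4:**
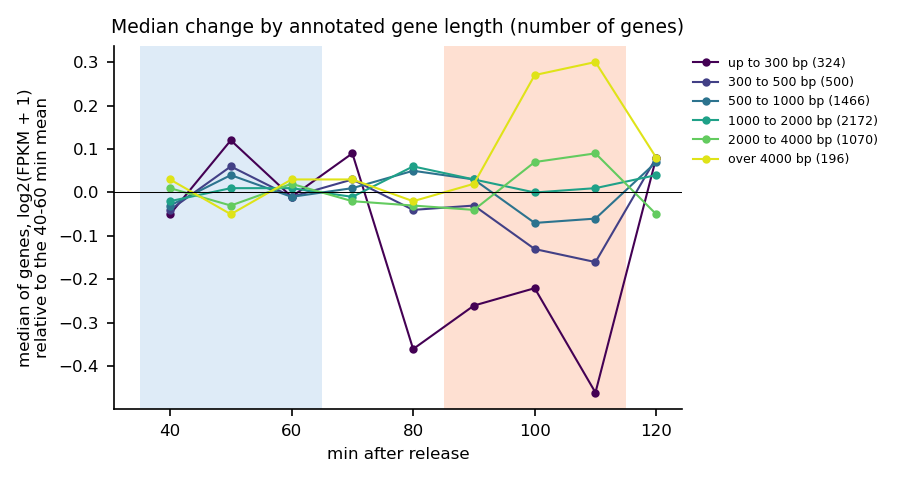
Median over genes in 6 classes of annotated length, relative to their 40 to 60 min mean on the log2(FPKM + 1) scale, in the libraries from 40 to 120 min, with the windows in blue and red. Genes of at most 300 bp lie at -0.36 at 80 min and -0.46 at 110 min, and genes over 4000 bp lie above 0 at 100 and 110 min.

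Nuclear genes of the respiratory chain, which pass electrons to oxygen and make ATP in mitochondria, were lower as well. Of 27 listed, 16 were called lower and none higher, with a median of -0.52 and a median length of 468 bp. COX7 (YMR256C, 183 bp), a subunit of cytochrome oxidase, went from 4541, 5177 and 4726 to 2384, 3054 and 1717 FPKM (-1.05 ± 0.21, limma adjusted p = 0.0204), and QCR10 of complex III fell by 0.88. These are short genes. Longer members fell too: ATP1, the alpha subunit of the ATP synthase, went from 273.2, 303 and 287.9 to 198.2, 168.5 and 160.6 FPKM (-0.71). Length adjustment left 16 called and a median of -0.38. Calls numbered 13 without 40 min, 1 without 50 min, 9 without 100 min and 0 without 110 min by limma, where 21 kept an unadjusted p under 0.05, and the common-sum median was -0.14. None of the 8 mitochondrially encoded genes in the table passed the minimum level.

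Sugar nucleotide and mannosylation genes supply the wall with mannan. Of 20 listed, 5 were called lower, beside 11.6% of all loci, and none higher (median -0.24). SEC53 (YFL045C, chromosome VI, 43628 to 44392), phosphomannomutase, had 3616, 2884 and 2529 FPKM and then 1525, 1440 and 1445 FPKM (-1.02 ± 0.15, limma adjusted p = 0.0113). PMI40, which makes mannose 6-phosphate, fell from 794.8, 620.7 and 425.9 to 324.3, 303.8 and 312.9 FPKM (-0.92), and PSA1, which makes GDP-mannose, fell by 0.65. These 3 genes are successive steps of 1 pathway. Calls numbered 5 without 40 min, 0 without 50 min, 8 without 60 min, 2 without 100 min and 0 without 110 min by limma, with 7 at an unadjusted p under 0.05 in the last. With a common sum the median of the list was 0.14, below the 0.35 of all loci.

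Cell wall genes did not move as a group. Of 32 wall mannoproteins, 8 were called higher, beside 10.5% of all loci, and none lower. The median was 0.07 against -0.01 for all loci. CWP1 (YKL096W, chromosome XI, 261132 to 261851), a GPI-anchored mannoprotein, rose from 151.5, 192.9 and 198.3 to 495.2, 379.3 and 460.7 FPKM (1.30 ± 0.14, limma adjusted p = 0.00833). SED1 (YDR077W, chromosome IV, 600793 to 601809), an abundant wall protein of resting cells, rose from 1133, 1275 and 1150 to 2309, 2002 and 2221 FPKM (0.88 ± 0.10, limma adjusted p = 0.00917). CRH1 (0.86), a chitin-glucan crosslinker, and HPF1 (0.93) also rose. The most abundant wall proteins did not: CCW12 stood at 3388, 7388 and 5790 and then 7009, 3391 and 4524 FPKM, and CWP2 at 6021, 12022 and 10596 and then 10035, 5603 and 6570 FPKM, with overlapping windows in both. The list's median was 0.55 at 80 min, 0.01 at 110 min and 0.73 in the next library, a swing wider than its difference between the windows.

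Among 27 genes of wall synthesis and remodelling, 4 were called in each direction. The glucanosyltransferase family split: GAS1 went from 2026, 1762 and 1382 to 1194, 1096 and 1122 FPKM (-0.58 ± 0.15, limma adjusted p = 0.0357) and GAS3 fell by 0.66, whereas GAS5 rose from 352.8, 434.4 and 487 to 636.5, 596.1 and 603 FPKM (0.54). Of 16 genes of the wall integrity pathway, 3 were called higher and 1 lower. SLT2 (YHR030C), its MAP kinase, rose from 109.3, 107.5 and 104.7 to 140.1, 133.7 and 152.1 FPKM (0.40 ± 0.07, limma adjusted p = 0.0173), and YLR194C (NCW2), a wall protein gene, rose by 1.11. The upstream kinase MKK2 fell by 0.37, with a difference of -0.00 in the common-sum scaling. Without the 110 min library none of the 3 wall lists had a call by limma, with 8, 4 and 3 higher at an unadjusted p under 0.05 in the mannoprotein, synthesis and integrity lists, and without 50 min they had 3, 0 and 2 higher calls. Leaving out 100 min left 4, 1 and 3 higher calls, and leaving out 40 min 5, 2 and 3.

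The genes of the proteasome, the protease that degrades ubiquitin-tagged proteins, had the highest share of calls among the 48 lists. All 32 genes of the list, which also holds CDC48, UBI4 and the activator gene RPN4, had a positive difference, 30 were called higher and the windows did not overlap for 31, with a median of 0.54. The 30 calls stand beside 10.5% of all loci called higher, and the 31 beside 20.9% of all loci with windows apart on the higher side. RPT4 (YOR259C, chromosome XV, 812395 to 813708, minus strand), an ATPase of the regulatory cap, rose from 157.9, 174.9 and 176 to 298.3, 285.9 and 295.7 FPKM (0.79 ± 0.07, limma adjusted p = 0.00604). RPN1 (YHR027C), a cap subunit that receives ubiquitin-like domains, rose from 95.45, 101 and 117.2 to 162.2, 177.7 and 201.5 FPKM (0.78 ± 0.11, limma adjusted p = 0.0113). UBI4 (YLL039C), the polyubiquitin gene, rose from 183, 194.1 and 242.2 to 393.8, 406.5 and 404.5 FPKM (0.97 ± 0.11, limma adjusted p = 0.00917). RPN4 (YDL020C), the factor that activates proteasome genes, rose from 145.6, 170 and 192.1 to 255.5, 259.5 and 266.9 FPKM (0.63).

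Calls came from both parts of the particle. In the catalytic core PRE8 (0.70), PRE6 (0.67) and PRE10 (0.57) were among the calls, and in the cap RPT1 (0.77), RPT2 (0.69) and RPT3 (0.68). The 2 members without a call were PUP3 (0.41, overlapping windows) and RPN3 (0.37, limma adjusted p = 0.0615). Calls numbered 20 without 40 min, 6 without 50 min, 19 without 100 min and 0 without 110 min by limma, where 30 kept an unadjusted p under 0.05 and the median was again 0.54. The rise had begun by 70 min, with a list median of 0.26, and reached 0.48 at 80 min and 0.81 at 120 min. ECM29 (YHL030W), which binds the core to the cap, was outside the list but among the 12 largest rises of called, annotated genes of at least 300 bp, from 18.41, 18.39 and 23.83 to 40.99, 54.96 and 59.69 FPKM (1.31 ± 0.16, limma adjusted p = 0.00917). At 5607 bp it is a long gene, and its length-adjusted difference was 1.12.

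Because these genes moved together, the 300 bases before their start codons were read from the R64 genome, the build the submitters name, and searched on both strands for GGTGGC, the core of the element that Rpn4 is known to bind. It was present in 28 of the 32 windows and absent as these letters from those of PRE5, PUP1, RPN4 and RPN8. The same letters were in 6.49% of all 5626 windows, 13.4% of those of genes called higher and 5.31% of those called lower. The list consists largely of known Rpn4 targets, so its share describes the list and is no result of this comparison. The genes called higher include 30 members of the list, so their 13.4% is not independent of it. The windows of the 3 cap genes with the largest differences among subunits are shown 5′ to 3′ on the gene's strand, with the motif in capitals on either strand (read as GCCACC on the other): RPT4 (chrXV:813709-814008, minus strand), RPN1 (chrVIII:164712-165011, minus strand) and RPT1 (chrXI:173913-174212, plus strand).
RPT4: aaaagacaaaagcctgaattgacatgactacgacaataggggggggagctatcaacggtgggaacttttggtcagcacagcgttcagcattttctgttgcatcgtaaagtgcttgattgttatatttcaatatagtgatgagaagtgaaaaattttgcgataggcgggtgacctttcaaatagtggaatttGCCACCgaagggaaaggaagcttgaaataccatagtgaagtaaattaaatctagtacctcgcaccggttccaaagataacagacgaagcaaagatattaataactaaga
RPN1: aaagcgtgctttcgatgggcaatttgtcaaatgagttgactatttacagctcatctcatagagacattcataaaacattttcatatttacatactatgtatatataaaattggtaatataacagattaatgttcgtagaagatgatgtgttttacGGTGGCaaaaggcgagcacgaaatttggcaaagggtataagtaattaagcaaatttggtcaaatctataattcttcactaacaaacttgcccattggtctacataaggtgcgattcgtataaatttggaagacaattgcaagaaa
RPT1: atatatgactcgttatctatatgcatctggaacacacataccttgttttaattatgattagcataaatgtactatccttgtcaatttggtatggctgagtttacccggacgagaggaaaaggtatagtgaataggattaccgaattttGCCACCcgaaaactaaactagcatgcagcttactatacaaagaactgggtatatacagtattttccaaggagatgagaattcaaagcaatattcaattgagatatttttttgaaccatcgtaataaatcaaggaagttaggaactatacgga

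Chaperone genes rose alongside the proteasome. All 21 genes of the Hsf1 list, which encode chaperones and their partners, had a positive difference, 11 were called higher and none lower, and the median was 0.49. SSA4 (YER103W, chromosome V, 364589 to 366517), the most inducible cytosolic Hsp70, rose from 43.42, 54.83 and 72.78 to 167.6, 143.3 and 151.9 FPKM (1.45 ± 0.18, limma adjusted p = 0.00917). HSP42 (YDR171W, chromosome IV, 806621 to 807748), a small heat shock protein that gathers misfolded proteins, rose from 35.98, 46 and 48.59 to 130.5, 103.9 and 116.7 FPKM (1.41 ± 0.14, limma adjusted p = 0.00604). The disaggregase gene HSP104 (YLL026W) rose from 145.7, 160.7 and 211.3 to 391.4, 364.6 and 347.1 FPKM (1.10 ± 0.14, limma adjusted p = 0.00936), and its mitochondrial relative HSP78 by 1.03. Each of these 4 climbed through the first window and up to 80 or 90 min. HSP104 and HSP42 had been higher still in the arrested cells at 0 min, with 541.8 and 294.9 FPKM. SSA1 (0.76) was called and its near copy SSA2 (0.17) was not. Their coding sequences are 96.4% identical, so the split between them is uncertain.

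The general stress genes rose less evenly. Of 33 listed targets of Msn2 and Msn4, the activators of the general stress response, 17 were called higher and 1 lower (median 0.51). PNC1 (YGL037C), nicotinamidase, rose from 59.43, 65.23 and 69.5 to 129, 137.6 and 154.8 FPKM (1.10 ± 0.10, limma adjusted p = 0.00563). CTT1, cytosolic catalase, rose from 11.32, 14.12 and 15.9 to 22.14, 24.84 and 27.18 FPKM (0.81), and HSP26 by 0.73. HSP12, often used as the reporter of this response, was not called: 87.52, 84.83 and 102 FPKM preceded 76.25, 90.21 and 75.05 FPKM. HOR7, at 180 bp a short gene, fell from 2340, 2575 and 1963 to 1145, 1430 and 1060 FPKM (-0.92). Calls on the higher side numbered 9 without 40 min, 3 without 50 min, 11 without 100 min and 1 without 110 min in the stress list. They numbered 6, 1, 5 and 0 in the chaperone list in the same order, and 5 without 90 min. In the chaperone list, 14 kept an unadjusted p under 0.05 by limma without 110 min. The stress list went on rising to a median of 1.23 at 200 min, while the chaperone list stood at 0.21. In the arrested cells at 0 min the stress list had stood higher still, at 2.49, and the chaperone list at -0.24.

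The stress element AGGGG was in 31.2% of the upstream windows of genes called higher, 15.9% of those called lower and 22.6% of all. The genes called higher include 17 of the stress list, so the 31.2% is not independent of it. The heat shock element core TTCNNGAA was in 15.5%, 14.6% and 13.2%. SSA4 and HSP42 stand in both lists and carry both motifs, so their windows are shown as before with every match in capitals, SSA4 at chrV:364289-364588 and HSP42 at chrIV:806321-806620, both on the plus strand.
SSA4: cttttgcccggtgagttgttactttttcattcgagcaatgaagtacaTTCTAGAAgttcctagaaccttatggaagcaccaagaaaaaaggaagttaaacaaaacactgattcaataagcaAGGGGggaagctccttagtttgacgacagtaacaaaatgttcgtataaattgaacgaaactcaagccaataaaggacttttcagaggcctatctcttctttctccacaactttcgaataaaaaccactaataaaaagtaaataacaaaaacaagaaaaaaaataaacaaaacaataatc
HSP42: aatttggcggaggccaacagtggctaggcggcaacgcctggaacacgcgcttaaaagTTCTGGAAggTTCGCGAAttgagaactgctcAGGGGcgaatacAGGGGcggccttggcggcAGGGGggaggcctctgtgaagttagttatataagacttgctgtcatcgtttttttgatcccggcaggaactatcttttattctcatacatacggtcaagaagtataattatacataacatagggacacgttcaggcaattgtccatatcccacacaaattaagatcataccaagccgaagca

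The largest rises of all lists were in amino acid synthesis, in the lysine and arginine pathways. Of 9 lysine genes 7 were called higher and none lower (median 0.66), and of 12 arginine genes 7 and none (median 0.68). LYS20 (YDL182W, chromosome IV, 133437 to 134723), homocitrate synthase at the entry of the lysine pathway, rose from 27.59, 73.7 and 112 to 231.8, 192.2 and 211.8 FPKM. Its difference of 1.77 ± 0.45 was the largest among named genes of at least 300 bp (limma adjusted p = 0.0353), and 40 min was by far the lowest library. LYS9 (YNR050C, chromosome XIV, 714048 to 715388), the saccharopine reductase, rose from 76.49, 95.22 and 107.6 to 264.1, 303.5 and 377.8 FPKM (1.75 ± 0.17, limma adjusted p = 0.00604). LYS1 (YIR034C, chromosome IX, 419615 to 420736), the last enzyme, rose from 52.92, 70.25 and 75.43 to 205.1, 203.9 and 259.3 FPKM (1.74 ± 0.16, limma adjusted p = 0.00563). LYS2 rose by 1.06 and LYS4 by 0.66, while LYS14, the activator of the pathway, stood at 45.43, 39.01 and 41.38 and then at 37.12, 46.77 and 46.45 FPKM (0.04). LYS9 and LYS1 were among the few genes still called without the 110 min library (limma adjusted p = 0.0397 and 0.0394).

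ARG1 (YOL058W, chromosome XV, 219211 to 220473), argininosuccinate synthase, rose from 75.97, 161 and 249 to 522.8, 458 and 496.9 FPKM (1.75 ± 0.39, limma adjusted p = 0.0235). ARG3 (1.19), ornithine carbamoyltransferase, rose as well, while the arginine breakdown genes CAR1 (-0.05) and CAR2 (-0.91) were not called. ARG4 (YHR018C), the last enzyme, rose from 202.3, 232.1 and 270.1 to 548.6, 617.1 and 675.2 FPKM (1.39 ± 0.13, limma adjusted p = 0.00604). This strain carries ARG4 as the marker in clb5 beside the arg4 allele, and reads of both cannot be told apart. Lysine calls numbered 3 without 50 min and 2 without 110 min by limma, and arginine calls 4 and 1. Of 34 further targets of Gcn4, the activator of amino acid synthesis, 10 were called higher and 1 lower (median 0.13), with HOM3, the first enzyme of threonine and methionine synthesis, at 0.73. That list had 1 higher call without 50 min, 6 without 100 min and 0 without 110 min by limma, where 11 kept an unadjusted p under 0.05. The Gcn4 motif TGACTC was in 13.6% of windows of genes called higher, 5.61% of those called lower and 7.91% of all. The genes called higher include members of the lysine, arginine and Gcn4 lists, so the 13.6% is not independent of them.

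The palindrome TCCNNNGGA, bound by Lys14, was searched after these values had been seen. It was in 4 of the 9 lysine windows and 3.29% of all windows. The windows of LYS9 (chrXIV:715389-715688, minus strand) and LYS1 (chrIX:420737-421036, minus strand), 2 of the largest rises, are shown with the matches in capitals.
LYS9: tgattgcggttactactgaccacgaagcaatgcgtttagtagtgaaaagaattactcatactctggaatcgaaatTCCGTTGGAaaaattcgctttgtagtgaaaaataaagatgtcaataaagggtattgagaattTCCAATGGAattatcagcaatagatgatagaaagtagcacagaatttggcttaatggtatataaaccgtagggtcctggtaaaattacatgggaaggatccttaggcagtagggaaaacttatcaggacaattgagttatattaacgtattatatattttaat
LYS1: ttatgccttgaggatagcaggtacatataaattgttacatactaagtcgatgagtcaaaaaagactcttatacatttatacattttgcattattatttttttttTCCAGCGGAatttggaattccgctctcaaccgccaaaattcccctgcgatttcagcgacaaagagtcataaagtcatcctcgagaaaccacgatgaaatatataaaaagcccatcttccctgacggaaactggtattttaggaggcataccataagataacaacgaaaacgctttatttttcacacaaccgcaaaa

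Genes of nutrient uptake and carbon metabolism moved in both directions, with more calls on the higher side. Over all loci, 10.5% were called higher and 11.6% lower. Of 20 iron genes 7 were called higher and 2 lower (median 0.31): TIS11 (YLR136C), which destabilizes mRNAs of iron-using proteins, rose from 4.255, 4.591 and 2.806 to 9.202, 13.86 and 17.78 FPKM (1.56 ± 0.26, limma adjusted p = 0.0143), and FRE1, a surface metal reductase, from 76, 85.83 and 99.89 to 149, 195 and 213.3 FPKM (1.07). The iron permease gene FTR1 fell by 0.58 and its partner FET3 (0.24) was not called. Of 19 glycolytic genes 6 were called higher and none lower (median 0.49), among them GPM1 (YKL152C), phosphoglycerate mutase, from 3359, 3856 and 3994 to 7618, 6636 and 7344 FPKM (0.95 ± 0.13, limma adjusted p = 0.0109). ENO2, enolase, reached 5559 FPKM at 80 min, above every library of either window, and TDH3 was not called (0.52). Relative to 40 to 60 min, the median of the glycolytic list was 1.97 at 0 min and 0.96 at 80 min. It was 0.27 at 100 min and 0.88 at 120 min. Trehalose and glycogen genes had 8 of 17 called higher (median 0.39), with TSL1 at 0.72 and TPS1 at 0.59. Their median had been 2.24 at 0 min, relative to 40 to 60 min. Of 14 fatty acid synthesis genes 5 were called higher and 2 lower (median 0.30). The elongase gene ELO1 (0.95) rose, and the elongase genes FEN1 (-0.37) and SUR4 (-0.45) fell. FAS1 (0.68), FAS2 (0.78) and ACC1 (0.75), of the first steps of the pathway, rose, but these are long genes of 6156, 5664 and 6702 bp and none of the 3 passed the threshold after length adjustment. Without 110 min 0 of the iron, glycolysis, trehalose and fatty acid genes were called by limma, with 8, 6, 9 and 5 higher at an unadjusted p under 0.05, and without 50 min 0, 0, 0 and 1 were. Leaving out 40 min left 4, 2, 3 and 4 higher calls and leaving out 100 min 3, 3, 5 and 2.

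ALD6 (YPL061W, chromosome XVI, 432588 to 434090), the cytosolic enzyme that makes acetate, was the largest rise outside these lists among called, annotated genes of at least 300 bp. Some short RNA genes stood further apart: snR52, of 92 bp, was listed at 0 in the first window and at 187.1, 34.17 and 66.11 FPKM in the second. ALD6 rose from 67.24, 70.38 and 82.7 to 179.7, 228.1 and 367.3 FPKM (1.74 ± 0.25, limma adjusted p = 0.0112) and was still climbing at 110 min. BOP2, from 10.3, 11.03 and 17.47 to 31.05, 41.87 and 41.16 FPKM (1.51), and RTC2, a vacuolar amino acid transporter gene, from 8.026, 6.297 and 8.191 to 16.93, 22.79 and 26.28 FPKM (1.42), also had windows well apart. Autophagy and vacuole genes gave 7 of 17 called higher (median 0.36), beside 10.5% of all loci. Their median had been 1.63 at 0 min, relative to 40 to 60 min. ATG8, whose product coats the forming autophagosome, stood at 0.44 and ATG1, the initiating kinase of autophagy, at 0.59. Calls in this list numbered 3 without 40 min, 0 without 50 min, 4 without 60 min, 3 without 100 min and 0 without 110 min by limma, where 9 kept an unadjusted p under 0.05. Among the falls outside these lists were UBC11, a ubiquitin-conjugating enzyme gene, from 17.69, 17.53 and 14.88 to 8.275, 8.227 and 6.173 FPKM (-1.05), and RGS2, a regulator of a glucose-sensing G protein, from 6.799, 7.431 and 5.476 to 2.933, 2.039 and 3.109 FPKM (-1.04). The small mitochondrial gene YKL044W (-1.23) and YER038W-A (-1.21), which overlaps another gene, fell as well. Of 10 galactose genes, which the earlier medium induces, 3 were called lower, beside 11.6% of all loci. GAL2 fell by 0.66, GAL10 by 0.57 and GAL7 by 0.51, and an annotated RNA gene overlaps GAL10. In the common-sum scaling the galactose median was 0.16. Without the 40, 50, 100 or 110 min library 0 galactose genes were called by limma, with 4 at an unadjusted p under 0.05 each time.

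**Figure D5:**
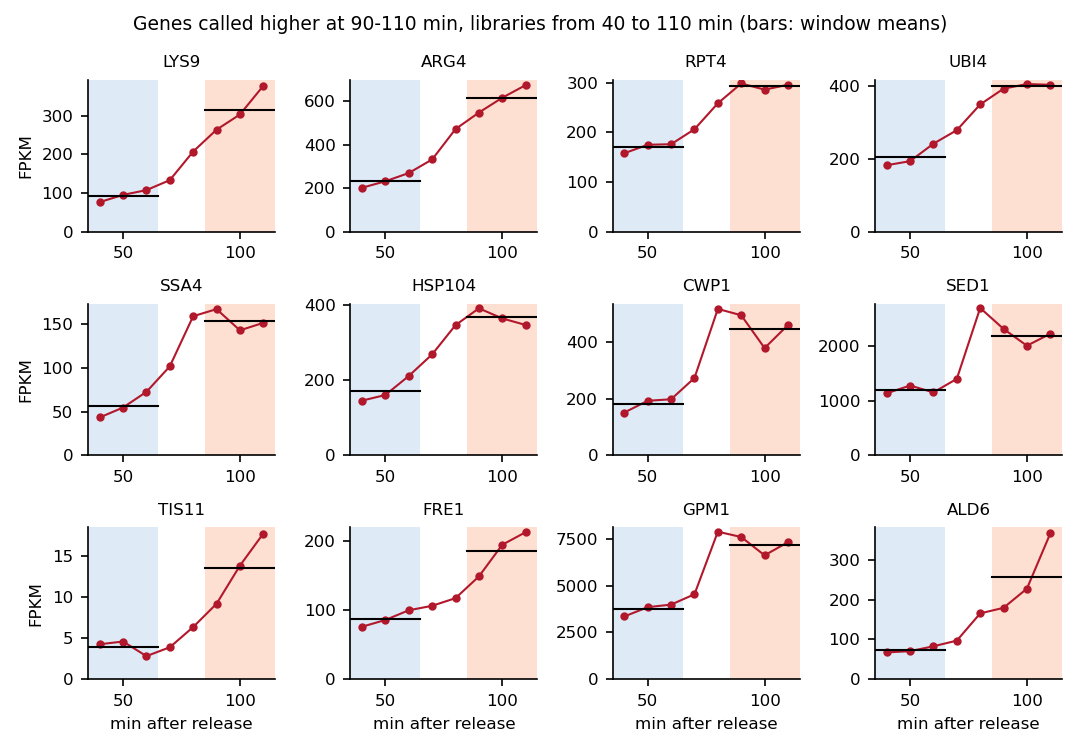
FPKM of 12 genes called higher, in the 8 libraries from 40 to 110 min, with the windows in blue and red and black bars at the window means. GPM1, SED1 and CWP1 step up between 70 and 80 min, while LYS9, ARG4 and ALD6 rise through the last library, where LYS9 stands at 377.8 FPKM.

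The changes were not finished at the end of the second window. Over the 710 loci called lower, the median relative to 40 to 60 min was -0.18 at 70 min and -0.40 at 80 min, against -0.51 as the difference between the windows and -0.74 at 200 min. Over the 642 called higher it was 0.20, 0.44, 0.52 and 0.75. These medians describe loci selected by the comparison itself. By 80 min, before the second window began, most of the difference was in place in both sets.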

How the data were processed

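The mRNA kit was stranded, per the labels' protocols, and the submitters' processing notes name STAR, Cufflinks, Cuffnorm and build R64 without versions. The deposited values are FPKM scaled across libraries, with 1 added by the authors. This unit is read from the values themselves, and the added 1 was subtracted here. Whether counting used strand is not given in the sources used here, so overlapping genes are uncertain. Fragment counts are unknown, so no counting interval is given. Names of 6200 of 7126 loci (87%) matched the R64 annotation. Differences on the log2(FPKM + 1) scale were tested in R 4.3.3 by limma 3.58.1, whose variances were moderated with a trend on the mean, keeping loci with a mean of at least 1 FPKM over the 6 libraries, and called at a Benjamini-Hochberg adjusted p under 0.05. The pseudocount of 1 understates changes of low genes. The fit was tested on simulated data with independent noise in each library. That test does not cover the dependence between neighbouring times. The windows, the 48 gene lists and the motifs were chosen with earlier results of these data known. Named genes were all histones, up to 4 called members of every other list with the largest difference (or up to 2 as values), and the 12 largest falls and rises among called, annotated genes of at least 300 bp with windows apart; other genes named, such as HSP12, RNR1, CCW12 and RPN4, were chosen after their values were seen. Of the 165 genes the rule names, 158 were called. Alternatives changed the pseudocount, filter, scaling, spread and windows and left out each library. 50 columns of another table, from wild-type cells of another series, were not used.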

Additional observations from a re-analysis of the deposited data

How the results depend on the processing

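No paired analysis was possible because the labels number no replicates and each time point is 1 library. Of the loci called lower (710) and higher (642), a common sum of FPKM left 140 and gave 2722, and windows of 5 libraries gave 1038 higher. Leaving out each library in turn gave 5 to 634 lower and 12 to 591 higher. Of the loci also at least 2-fold lower (60) or higher (57), a pseudocount of 10 left 27 and 25, a common sum left 24 and gave 229, the spread pooled over 21 libraries left 35 lower, and length adjustment, added after seeing the data, left 21 lower. Leaving out each library gave 4 to 70 and 10 to 70. Other settings stayed within 1.5 times of these counts. With a common sum the differences of DBF2 and MPD1 were 0.03 and 0.02, a change of sign. Of the 158 genes named by the rule and called, 5 kept their call and direction without 110 min, 21 without 50 min, 92 without 100 min and 102 without 40 min, and 50 lost their call with the pooled spread. Pseudocounts of 0.1 and 10 and scaling by median ratio kept 158, 156 and 156 calls. The cause of the lost calls was not tested. Fragment counts are unknown, so depth limits the low genes by an unknown amount.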
